A study of Mus musculus with 8 samples.

Results

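The genes described here are the *Zfp* genes, mouse zinc finger genes named by *Zfp* and a number, that were expressed in tibialis anterior (TA) muscle. A gene was taken when 4 or more of the 8 muscles reached 1 TPM (transcripts per 1000000 transcripts), and *Zfp36* was left out. Of 371 rows with such a name among the 41709 of the table, 243 were taken, 127 lay under the threshold and 15 of these were listed at 0 in every muscle. The genes were thus chosen by their levels, which are given as a description.

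Total mRNA was measured by RNA-seq in TA muscles of 3-month-old male C57BL/6J mice, collected 7 days after electroporation. Control non-targeting (NT) siRNAs were electroporated into 4 muscles and *Uba1* siRNAs into the 4 contralateral muscles, each as a mixture of 4 siRNA species, and all 8 muscles received hyaluronidase before the current. The sample names put every muscle with NT siRNAs on the side R and every muscle with *Uba1* siRNAs on the side L, so that leg and siRNA cannot be told apart. The treatment tags name UBA2, UBA3 and UBA4 for replicates 2, 3 and 4 with *Uba1* siRNAs, whereas their titles and descriptions name UBA1. Whole muscle was sequenced, so fewer cells of a type and less RNA per cell cannot be told apart. TPM keep no total number of reads, and the depth of each muscle is unknown.

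Most *Zfp* genes encode proteins with C2H2 zinc fingers, short loops in which a pair of cysteines and a pair of histidines hold a zinc ion and the residues between them can contact DNA bases. In the largest class, fingers stand in a row behind a KRAB domain, which recruits the corepressor TRIM28 and through it the methyltransferase SETDB1, and many of these proteins silence retroelements. Other *Zfp* genes encode promoter-binding factors, subunits of chromatin complexes, RNA-binding proteins and ubiquitin ligases, and the shared name says little of their function. *Uba1* encodes the main enzyme that activates ubiquitin.

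A finger of a few members is shown so that what the family shares, and how little else, can be seen. Each line gives the 84 bases that encode the middle finger of the protein and the linker after it, on the coding strand of GRCm39, with the codons of the cysteines and histidines in capitals. *Zfp689*, *Zfp52*, *Zfp799* and *Zfp112* had the smallest P values among genes with at least 3 fingers, and *Zfp91* and *Zfp768* the highest levels. They lie at chr7:127043591-127043674 (minus strand, exon 3 of 3) for *Zfp689*, chr17:21781723-21781806 (plus strand, exon 5 of 5) for *Zfp52* and chr17:33038927-33039010 (minus strand, exon 4 of 4) for *Zfp799*. The others lie at chr7:23826098-23826181 (plus strand, exon 5 of 5) for *Zfp112*, chr19:12747829-12747912 (minus strand, exon 11 of 11) for *Zfp91* and chr7:126942846-126942929 (minus strand, exon 2 of 2) for *Zfp768*.
Zfp689: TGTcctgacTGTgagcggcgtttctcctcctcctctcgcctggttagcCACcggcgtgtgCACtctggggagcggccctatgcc
Zfp52: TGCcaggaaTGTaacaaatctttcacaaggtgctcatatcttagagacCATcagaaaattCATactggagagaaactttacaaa
Zfp799: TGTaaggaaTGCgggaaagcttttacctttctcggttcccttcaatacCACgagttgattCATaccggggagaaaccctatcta
Zfp112: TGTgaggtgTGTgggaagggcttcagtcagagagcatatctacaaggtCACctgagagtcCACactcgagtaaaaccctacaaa
Zfp91: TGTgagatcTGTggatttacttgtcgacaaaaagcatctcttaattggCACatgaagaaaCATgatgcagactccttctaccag
Zfp768: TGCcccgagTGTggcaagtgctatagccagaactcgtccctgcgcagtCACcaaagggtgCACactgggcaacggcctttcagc
Between any pair of these stretches, 33.3% to 59.5% of the bases were identical. The highest identity was that of *Zfp52* with *Zfp799* and with *Zfp112*, and the lowest was that of *Zfp689* with *Zfp91*.

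Of the 243 genes, 242 matched a gene of the GENCODE annotation by symbol and *Zfp651* did not. All 242 were annotated as protein coding. The C2H2 pattern, with 2 residues between the cysteines, 12 from there to the histidines and 3 to 5 between the histidines, was found in 232 of their proteins, with a median of 10 fingers and a maximum of 33 in *Zfp462*. Numbers of fingers in this report count matches of this pattern, and fingers of other spacing are missed. The 10 proteins without the pattern included those of *Zfp330*, *Zfp503*, *Zfp703* and *Zfp839*. The pattern of a KRAB domain was found in 115, that of a SCAN domain, a domain through which such proteins pair, in 9, and both in 2. These patterns are short and can miss a domain. KRAB genes in this report are those with the pattern, and the others may include genes that encode the domain. Part of the *Zfp* genes lay close together, and 105 (43.2%) had another of the 243 within 100 kb. Chromosome 7 held 61 of the 243, chromosome 17 held 28 and chromosome 8 held 18.

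The level of most *Zfp* mRNAs was low. Their mean TPM over the 8 muscles had a median of 3.19 with quartiles of 1.82 and 5.44, beside a median of 7.28 for all 11530 genes that met the same threshold. Only 20 of the 243 had a mean of 10 TPM or more and 75 had a mean under 2 TPM. All 8 muscles were at 1 TPM or more for 215 genes, and 28 were under it in at least 1 muscle. The genes just inside the threshold, by the fourth of their muscles from the top, were *Zfp267* at 1.0 TPM, *Zfp961* at 1.0 TPM and *Zfp429* at 1.01 TPM. Just outside it were *Zfp763* at 0.999 TPM, *Zfp420* at 0.982 TPM and *Zfp982* at 0.973 TPM.

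*Zfp106* stood apart from the rest. It encodes an RNA-binding protein whose loss in mice causes degeneration of motor neurons and muscle. With NT siRNAs it was at 258, 256, 238 and 278 TPM in replicates 1 to 4, and with *Uba1* siRNAs at 221, 295, 260 and 294 TPM. The groups overlapped, with the lowest muscle in the *Uba1* group. The log2FC, on the scale of log2(TPM + 1) here and below, was 0.046 (SE, standard error, 0.0997, limma adjusted p = 0.805) and turned negative with median-ratio scaling (-0.075). *Zfp106* alone held 18.6% of the summed TPM of the 243 genes, and its mean of 263 TPM was 5.11 times that of *Zfp91*, the next gene.

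*Zfp91* encodes a ubiquitin ligase. It was at 50.8, 46.8, 46.2 and 54.9 TPM with NT siRNAs and at 46.7, 54.6, 52.6 and 58.2 TPM with *Uba1* siRNAs, and the groups overlapped. In the order of level there followed *Zfp651* at a mean of 42.1 TPM, *Zfp768* at 28.7 TPM, *Zfp46* at 22.9 TPM, *Zfp358* at 21.6 TPM, *Zfp652* at 19.2 TPM, *Zfp703* at 18.3 TPM, *Zfp706* at 17.2 TPM and *Zfp207* at 16.7 TPM. From *Zfp46* downwards the ranges of neighbours over the 8 muscles overlapped, as did those of *Zfp91* and *Zfp651*, while *Zfp768*, at 26.4 to 34.6 TPM, overlapped neither neighbour. The groups overlapped for all 10 genes. The smallest unadjusted P among them was that of *Zfp768*, at 26.9 ± 0.663 TPM with NT and 30.5 ± 3.08 TPM with *Uba1* siRNAs (SD, n = 4 per group).

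**Figure D1:**
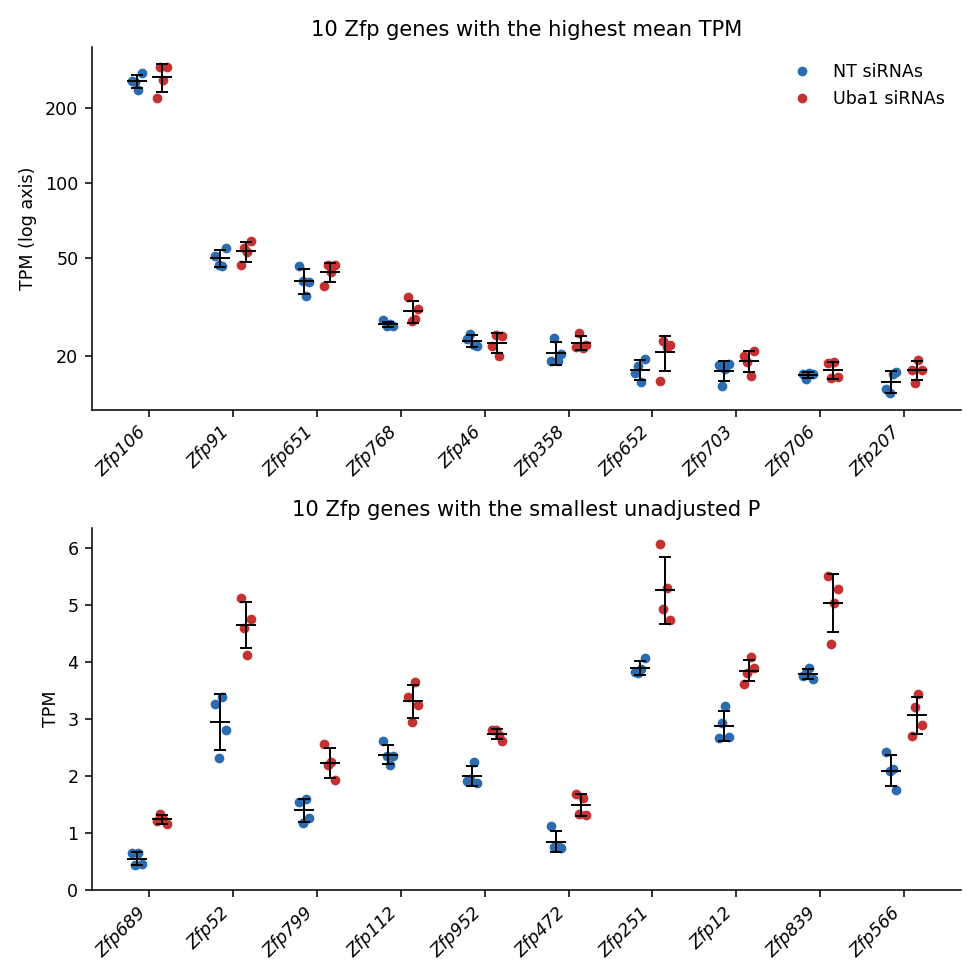
TPM of the 10 *Zfp* genes with the highest mean (upper plot, log axis) and of the 10 with the smallest unadjusted P (lower plot), with a point for each muscle, NT siRNAs in blue, *Uba1* siRNAs in red, and black bars for the mean ± SD of 4 muscles. The groups overlap for every gene of the upper plot and for none of the lower plot, where all levels lie under 6.1 TPM and *Zfp251* reaches the highest with 6.07 TPM.

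The comparison of *Uba1* with NT siRNAs asked whether reducing the ubiquitin-activating enzyme altered these mRNAs. *Uba1* mRNA itself was at 59.0 to 63.6 TPM with NT siRNAs and at 6.77 to 23.1 TPM with *Uba1* siRNAs, and the groups did not overlap. Its log2FC was -1.98 (SE 0.29, limma adjusted p = 0.0527). With the replicate number, which marks the legs of 1 mouse, as a block, its adjusted p was 0.0278.

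None of the 243 *Zfp* genes passed an adjusted p of 0.05 in limma with Benjamini-Hochberg adjustment over all 11530 genes (background 0.0260%, or 3 genes). The smallest adjusted p was 0.0644, that of *Zfp689*, which reached 1 TPM with *Uba1* siRNAs only and so had to differ. The next was that of *Zfp52*, at 0.116. At an unadjusted P under 0.05, 95 *Zfp* genes (39.1%) were higher with *Uba1* siRNAs, beside 16.0% of all genes tested, and 1 was lower, beside 1.98%. With the replicate block 0 passed the adjusted p, beside 0.494% of all genes, and the smallest was 0.056, those of *Zfp689* and *Zfp324*. The Kruskal-Wallis test, whose P has few possible values with 4 muscles a group, passed 0 of the 11530 genes, so it bears little on the *Zfp* genes.

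The log2FC was above 0 for 231 of the 243 genes (95.1%), beside 81.8% of all genes tested, and its median was 0.18, beside 0.11. No *Zfp* gene had an absolute log2FC above 0.58, beside 1.69% of all genes, but with a pseudocount of 0.1, which shrinks genes of low level less, 9 did (3.7%), beside 3.31%, and *Zfp689* reached 1.06. On the linear scale, the ratio of mean TPM with *Uba1* to NT siRNAs had a median of 1.19 over the *Zfp* genes and of 1.09 over all genes, and ranged from 0.795 to 2.26 over the *Zfp* genes. Every muscle with *Uba1* siRNAs lay above every muscle with NT siRNAs for 66 *Zfp* genes, beside 10.6% of all genes (1225), and below for 0, beside 1.01%. *Zfp689* and *Zfp94*, which reached 1 TPM with *Uba1* siRNAs only, are among these 66 and had to differ. The summed TPM of the 243 genes was 1329, 1287, 1305 and 1386 in replicates 1 to 4 with NT siRNAs and 1482, 1496, 1532 and 1501 with *Uba1* siRNAs, and these groups did not overlap. Without *Zfp106* the sums were 1069 ± 31.3 TPM with NT and 1235 ± 36.5 TPM with *Uba1* siRNAs (SD, n = 4 per group). Of the 112 *Zfp* genes under the threshold that were above 0 in some muscle, 92 (82.1%) had a log2FC above 0 in the fit without a filter, beside 72.4% of all genes in that fit.

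Of all genes tested, 81.8% had a log2FC above 0, and scaling by the median ratio of each muscle moved the median log2FC of all genes from 0.11 to 0.0016. With median-ratio scaling, 199 of 243 (81.9%) had a log2FC above 0, beside 50.7% of all genes, and their median was 0.095. At an unadjusted P under 0.05, 41 were then higher, beside 4.43% of all genes, and 2 were lower, *Zfp948* and *Zfp954*, beside 6.18%. For 32 genes the direction turned from higher to lower. With quantile normalization the share above 0 was 79% and the median 0.075, beside 54.6% and 0.012 of all genes. The *Zfp* genes at an unadjusted P under 0.05 and higher under the main test, both scalings and the replicate block numbered 27 (11.1%), beside 3.52% of all genes.

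**Figure D2:**
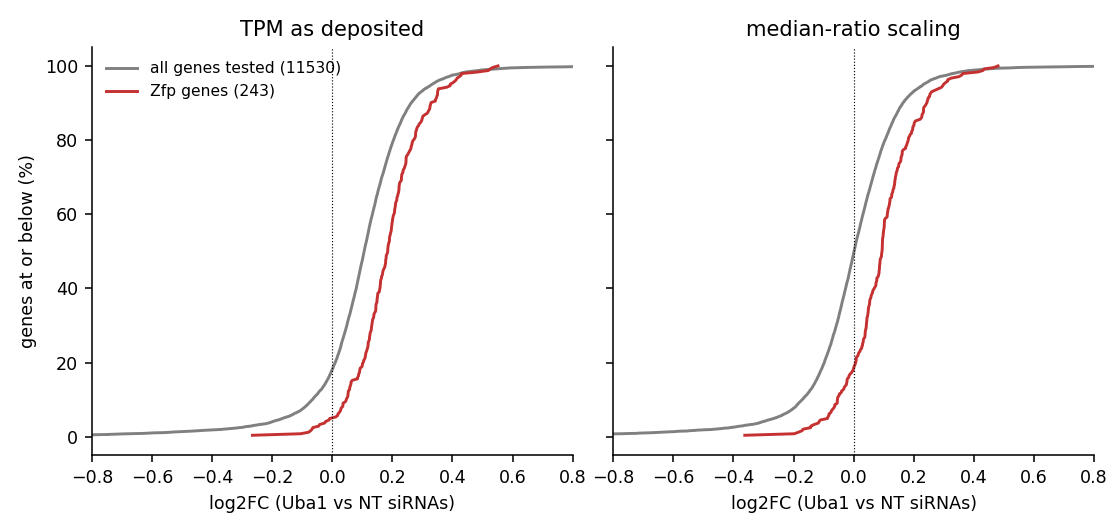
Cumulative share of genes (%) at or below each log2FC of *Uba1* against NT siRNAs, for the 243 *Zfp* genes (red) and all 11530 genes tested (grey), from TPM as deposited (left) and after median-ratio scaling (right). The red curve lies to the right of the grey in both plots over most of the range, with medians of 0.18 against 0.11 and of 0.095 against 0.0016, while the tails of all genes reach further out on both sides.

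The mice differed in this. Between the legs of mice 1 to 4, the median log2 difference of the *Zfp* genes was 0.21, 0.19, 0.21 and 0.10, and that of all genes tested was 0.19, 0.03, 0.15 and 0.044. The *Zfp* genes were therefore closest to all genes in mouse 1 and furthest from them in mouse 2. The share of *Zfp* genes that were higher in the leg with *Uba1* siRNAs was 89.7%, 82.7%, 93.4% and 73.7%, beside 83.3%, 56.1%, 81.8% and 61.8% of all genes. In all 4 mice 129 *Zfp* genes were higher, which is 53.1% of them beside 32.2% of all genes, and 1 was lower, beside 2.98%. *Uba1* mRNA was lowest in the leg of mouse 2, at 6.77 TPM, and highest in that of mouse 4, at 23.1 TPM.

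The *Zfp* genes with the smallest P were mostly KRAB genes of low level. *Zfp689*, a KRAB gene with 10 fingers on chromosome 7, was at 0.648, 0.446, 0.646 and 0.457 TPM with NT siRNAs and at 1.22, 1.34, 1.24 and 1.16 TPM with *Uba1* siRNAs. The ratio of the means was 2.26 and the log2FC was 0.53 (SE 0.0847, limma adjusted p = 0.0644). All its muscles with NT siRNAs lay under 1 TPM, so that it met the threshold through the *Uba1* group alone and had to differ. The same holds of *Zfp94*, at 0.849 to 0.99 TPM with NT and 1.07 to 1.28 TPM with *Uba1* siRNAs. Both genes are in the counts given above, by unadjusted P, by overlap of groups and by mouse.

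*Zfp52* was at 3.27, 2.31, 3.38 and 2.81 TPM with NT siRNAs and at 5.12, 4.59, 4.13 and 4.76 TPM with *Uba1* siRNAs. Its groups lay apart, with a log2FC of 0.53 (SE 0.104, limma adjusted p = 0.116). *Zfp799*, with 16 fingers, was at 1.54, 1.18, 1.6 and 1.27 TPM and at 2.56, 2.19, 2.24 and 1.93 TPM, again without overlap. *Zfp52*, *Zfp799*, *Zfp952* and *Zfp472* are all KRAB genes of chromosome 17. *Zfp112*, on chromosome 7, was at 2.38 ± 0.171 TPM with NT and 3.31 ± 0.29 TPM with *Uba1* siRNAs (SD, n = 4 per group). *Zfp251* on chromosome 15 was at 3.83, 3.81, 3.88 and 4.07 TPM and at 6.07, 4.93, 5.29 and 4.73 TPM.

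The remaining genes of the 10 with the smallest P were *Zfp12*, *Zfp839* and *Zfp566*. *Zfp839* was the single gene of the 10 without a KRAB pattern and had no C2H2 pattern either, and was at 3.79 ± 0.0824 TPM with NT and 5.03 ± 0.513 TPM with *Uba1* siRNAs (SD, n = 4 per group). The log2FC of the 10 genes was 0.32 to 0.53 and each was higher in 4 of 4 mice. After median-ratio scaling it was 0.23 to 0.48.

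Among the genes that were higher in 4 of 4 mice, the log2FC was largest for *Zfp689*, *Zfp52*, *Zfp324*, *Zfp472* and *Zfp799*. *Zfp324* was at 1.19, 0.919, 0.895 and 0.635 TPM with NT siRNAs and at 2.01, 1.67, 1.87 and 1.16 TPM with *Uba1* siRNAs, so that the groups overlapped although each leg with *Uba1* siRNAs lay above its partner. Its adjusted p was 0.162 from limma and 0.056 with the replicate block. *Zfp971* and *Zfp966*, both on chromosome 2, had log2FCs of 0.55 and 0.52 but were higher in 3 of 4 mice only. All 100-mers of *Zfp966* also occur in another gene, so its reads cannot be assigned to it with certainty.

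*Zfp948* was the single *Zfp* gene lower in 4 of 4 mice. This KRAB gene with 15 fingers on chromosome 17 was at 4.02, 3.68, 4.71 and 4.08 TPM with NT siRNAs and at 3.4, 3.42, 3.8 and 2.48 TPM with *Uba1* siRNAs. The groups overlapped in that 1 muscle with *Uba1* siRNAs exceeded 1 with NT siRNAs, and the log2FC was -0.27 (SE 0.111, limma adjusted p = 0.255). The other 11 genes with a log2FC under 0 had values between -0.11, for *Zfp954*, and -0.0085, for *Zfp879*.

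**Figure D3:**
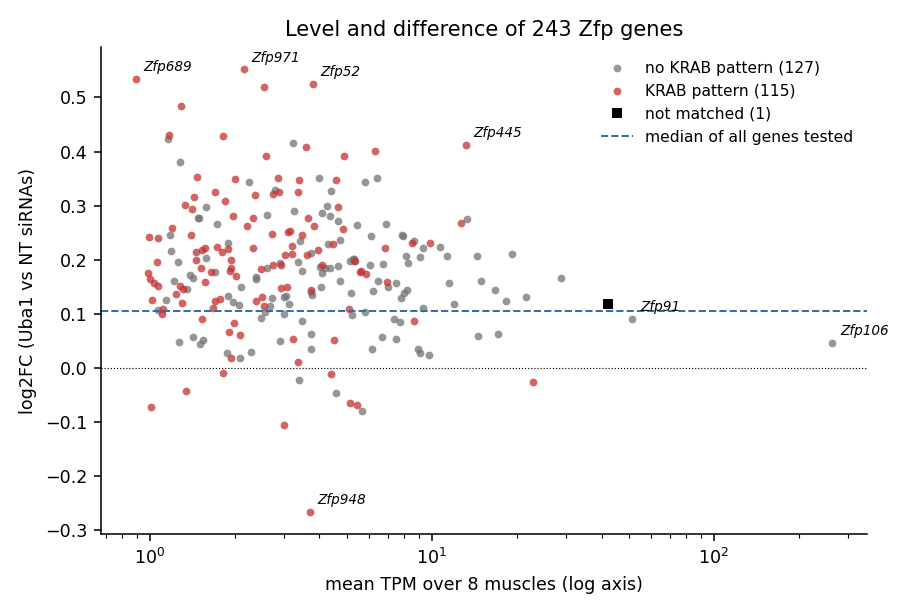
Mean TPM over 8 muscles (log axis) against the log2FC of *Uba1* versus NT siRNAs, with a point for each of the 243 *Zfp* genes, KRAB genes in red and others in grey. The dashed line marks the median of all genes tested, 0.11, and most points lie above it, while *Zfp106* and *Zfp91*, the genes of highest level, lie between it and 0 and *Zfp948* lies lowest at -0.27.

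KRAB genes had a lower median level and a larger median log2FC than the genes without the pattern, which may include some with the domain. The median level of KRAB genes was 2.37 TPM beside 4.25 TPM for the 127 annotated genes without a KRAB pattern, and their median log2FC was 0.21 beside 0.16. A log2FC above 0 was found for 92.2% of KRAB genes and 97.6% of the others, an order that turned with median-ratio scaling (86.1% and 78%) and quantile normalization (82.6% and 75.6%). By mouse, 110, 96, 102 and 86 of the 115 KRAB genes were higher with *Uba1* siRNAs, and 108, 104, 124 and 92 of the 127 others, so the share of KRAB genes was lower in mouse 3 alone. At an unadjusted P under 0.05, 57 of the 115 KRAB genes (49.6%) were higher and 1 was lower, beside 38 (29.9%) and 0 of the genes without the pattern and 16.0% and 1.98% of all genes. With median-ratio scaling, 29 of the KRAB genes (25.2%) and 12 of the others (9.45%) were higher at that P, beside 4.43% of all genes. The difference of 0.045 between the class medians of log2FC became 0.022 among genes with a mean of 5 TPM or more. By mouse, the median log2 difference of KRAB genes was 0.24, 0.24, 0.21 and 0.12, and that of the others was 0.19, 0.15, 0.20 and 0.10. The summed TPM of KRAB genes was 310 to 352 with NT and 383 to 417 with *Uba1* siRNAs. Genes are no replicates of a condition, and the difference between the classes was not tested.

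By the number of matches of the finger pattern, which misses fingers of other spacing, the 28 genes with 0 to 2 matches had a median log2FC of 0.13. Of these 28, 4 were higher at an unadjusted P under 0.05 (14.3%), beside 16.0% of all genes, or 2 (7.14%) with median-ratio scaling, beside 4.43%. For 86 genes with 3 to 9 fingers, 75 with 10 to 13 and 53 with 14 or more, the medians were 0.18, 0.20 and 0.18 and the shares 36%, 49.3% and 43.4%, or 15.1%, 21.3% and 18.9% with median-ratio scaling. Genes with another *Zfp* gene within 100 kb had a median of 0.20, and on chromosomes 7, 17 and 8 the medians were 0.20, 0.19 and 0.14.

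**Figure D4:**
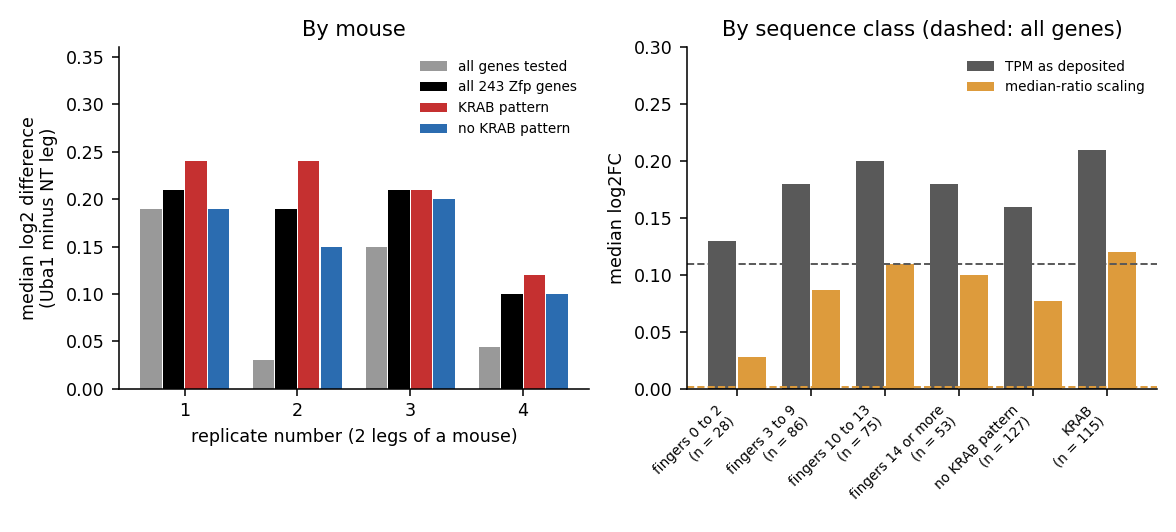
Left, median log2 difference between the legs of each mouse for all genes tested (grey), all 243 *Zfp* genes (black), KRAB genes (red) and genes without a KRAB pattern (blue). Right, median log2FC by number of matches of the finger pattern and by KRAB pattern from TPM as deposited (dark) and after median-ratio scaling (orange). Dashed lines mark all genes tested at 0.11 and 0.0016. In mouse 2 the *Zfp* bar of 0.19 stands furthest above that of all genes, 0.03, and in mouse 1 they are nearly level, and on the right the bars for 0 to 2 fingers are the lowest, at 0.13 and 0.028.

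The share of *Zfp* genes whose sequence other genes repeat was modest. Of their transcripts' 100-mers, the length of a read, 175 of the matched genes shared none with another gene and 19 shared over 20%. Among the latter were *Zfp965*, *Zfp966* and *Zfp967* (100%), *Zfp708* (97.2%), *Zfp932* (49.5%) and *Zfp91* (35.3%), and their single values are uncertain. Without the 19, the median log2FC was 0.18 and 88 of 224 genes (39.3%) were higher at an unadjusted P under 0.05, beside 16.0% of all genes. With median-ratio scaling the median was 0.094 and 36 (16.1%) were higher at that P, beside 0.0016 and 4.43% of all genes.

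By known role, counts at an unadjusted P under 0.05 are to be read against the 16.0% of all genes that were higher at it, or 4.43% with median-ratio scaling, and the lists are short. The ubiquitin and SUMO ligases *Zfp91*, *Zfp598*, which marks collided ribosomes, and *Zfp451*, which attaches SUMO, had log2FCs of 0.09, 0.059 and 0.17, and those of *Zfp91* and *Zfp598* turned negative with median-ratio scaling. *Zfp598* was at 14.3 ± 0.636 TPM with NT and 15.0 ± 0.525 TPM with *Uba1* siRNAs (SD, n = 4 per group). The 4 genes of ribosome assembly or ribosomal proteins' partners, *Zfp622*, *Zfp593*, *Zfp277* and *Zfp330*, had log2FCs of 0.10, -0.079, 0.052 and 0.035, and all 4 were negative with median-ratio scaling. None of these 7 was at an unadjusted P under 0.05.

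Among 7 genes of RNA binding and splicing, 2 were higher at an unadjusted P under 0.05, *Zfp638* and *Zfp346*, and 0 lower, and with median-ratio scaling 0 were higher at it. *Zfp346*, which binds double-stranded RNA, was at 7.53, 7.44, 7.71 and 7.18 TPM with NT siRNAs and at 9.66, 8.12, 9.73 and 7.74 TPM with *Uba1* siRNAs. Its groups lay just apart, with *Uba1* replicate 4 close to the NT muscles. Among the 12 promoter-binding factors without KRAB, 2 were higher at that P, *Zfp219* with a log2FC of 0.27 and *Zfp148* with 0.23, and 0 lower. With median-ratio scaling *Zfp219* alone was. *Zfp143*, an activator that binds many promoters, had a log2FC of 0.14, and *Zfp131* one of 0.023.

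Of the 7 subunits of chromatin complexes, *Zfp532* alone (14.3%) was higher at an unadjusted P under 0.05, and none was with median-ratio scaling, where its log2FC was 0.10. Its partners in a complex with ZMYND8, *Zfp592* and *Zfp687*, had log2FCs of 0.054 and 0.058, beside 0.20 for *Zfp532*, and theirs turned negative with median-ratio scaling. *Zfp532* was at 5.12, 5.02, 4.65 and 4.55 TPM with NT siRNAs and at 5.38, 5.8, 6.2 and 5.47 TPM with *Uba1* siRNAs.

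The 5 genes listed for muscle and heart had log2FCs of 0.046 to 0.22, and *Zfp260*, a cofactor of GATA4 in heart, and *Zfp637* were higher at an unadjusted P under 0.05, though neither was with median-ratio scaling. *Zfp637* was at 14.1 ± 0.269 TPM with NT and 15.9 ± 0.968 TPM with *Uba1* siRNAs (SD, n = 4 per group). Of the 6 genes listed for adipose and bone lineages, 3 were higher at that P, *Zfp467*, *Zfp521* and *Zfp638*, and with median-ratio scaling *Zfp467* alone was, while all 6 log2FCs stayed above 0. The 4 adipocyte markers tested all had a log2FC under 0, with a median of -0.61, and their part in these values was not tested. *Zfp467*, which favours fat over bone in marrow cells, was at 5.3, 4.49, 4.73 and 5.38 TPM with NT siRNAs and at 7.02, 5.88, 7.52 and 5.97 TPM with *Uba1* siRNAs. *Zfp423*, which commits cells to the fat lineage, had overlapping groups and a log2FC of 0.29.

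Of the 6 genes listed for imprinting and the silencing of retroelements, *Zfp57* lay under the threshold in all 8 muscles, and of the 5 others *Zfp445*, *Zfp932* and *Zfp638* were higher at an unadjusted P under 0.05, and *Zfp932* alone with median-ratio scaling. *Zfp445*, which with *Zfp57* guards imprints, was at 10.2, 8.83, 11.3 and 14.6 TPM with NT siRNAs and at 14.3, 14.1, 15.9 and 16.0 TPM with *Uba1* siRNAs. It was higher in 4 of 4 mice, with NT replicate 4 inside the *Uba1* range, and its log2FC was 0.41 (SE 0.13, limma adjusted p = 0.182). *Zfp932*, which binds endogenous retroviruses, had a log2FC of 0.28. *Zfp809*, which silences retroviral DNA, had one of 0.12, and *Zfp568*, a repressor of a placental *Igf2* promoter, one of -0.067 with a wide spread between muscles.

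The genes through which KRAB proteins silence chromatin had a median log2FC near that of all genes. All 20 tested had a log2FC above 0, beside 81.8% of all genes, with a median of 0.10 beside 0.11. With median-ratio scaling only 9 of 20 (45%) did, beside 50.7%. Of these 20, 3 (15%) were higher at an unadjusted P under 0.05, beside 16.0% of all genes, and 0 lower, beside 1.98%. With median-ratio scaling 1 (5%) was higher at it, beside 4.43%, so these shares were near those of all genes. The 3 were *Ehmt2*, a histone H3 methyltransferase, at 15.0 ± 0.415 TPM with NT and 18.4 ± 1.31 TPM with *Uba1* siRNAs (SD, n = 4 per group), *Tasor*, a subunit of the HUSH complex, and *Morc2a*. Of 20 imprinted genes tested, 8 had a log2FC above 0 (2 with median-ratio scaling), with a median of -0.022, or -0.13 with that scaling. *Nnat*, with a log2FC of -0.74, was lower at an unadjusted P under 0.05, beside 1.98% of all genes, and with median-ratio scaling *Nnat* and *Snrpn* were, beside 6.18%. The level of *Nnat* was low, at 1.25 to 2.78 TPM with NT and 0.105 to 2.0 TPM with *Uba1* siRNAs. Its groups overlapped, and it was higher in 1 of 4 mice.

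Other zinc finger families were described beside the *Zfp* genes. Of 32 *Zbtb* genes tested, 28 had a log2FC above 0 (23 with median-ratio scaling), their median was 0.15, and 8 were higher and 1 lower at an unadjusted P under 0.05. Of 14 *Zkscan* and *Zscan* genes, 12 had a log2FC above 0 (10 with median-ratio scaling), their median was 0.17 and 6 were higher at that P. *Zbtb6* was at 1.3, 0.928, 1.54 and 1.21 TPM with NT siRNAs and at 2.24, 1.83, 2.07 and 1.59 TPM with *Uba1* siRNAs. *Zkscan7* was at 1.53 ± 0.131 TPM and 2.02 ± 0.0759 TPM (SD, n = 4 per group). Above 0 were thus 87.5% and 85.7%, beside 81.8% of all genes and 95.1% of the *Zfp* genes, and higher at that P were 25% and 42.9%, beside 16.0% and 39.1%. With median-ratio scaling 3 *Zbtb* genes (9.38%) and 2 *Zkscan* and *Zscan* genes (14.3%) were higher at it, beside 4.43% of all genes and 16.9% of the *Zfp* genes. No difference between families was tested.

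The sequence before the start of transcription was described because many members differed in the same direction. In the window from 250 bases before to 50 bases after the annotated start, *Zfp* genes held a median of 13.5 CG dinucleotides and 54% G and C, beside 17 and 58% over all 11365 windows of tested genes. On either strand, CCGGAA, the core letters of a site of ETS factors, occurred in 38.8% of *Zfp* windows beside 24.7% of all. CCAAT occurred in 47.1% beside 39.2%, AAGATGG in 8.26% beside 6.47% and TATAAA in 6.2% beside 8.38%. None of these motifs contains another. The 150 bases before the start of *Zfp87* at chr13:67674317-67674466 (minus strand) and of *Zfp110* at chr7:12568510-12568659 (plus strand) are shown in the sense of the gene, with CCGGAA or its reverse complement in capitals. They were the genes with the smallest P among those with at least 3 fingers whose stretch holds the letters, overlaps no annotated exon and whose transcript shares under 10% of its 100-mers.
Zfp87: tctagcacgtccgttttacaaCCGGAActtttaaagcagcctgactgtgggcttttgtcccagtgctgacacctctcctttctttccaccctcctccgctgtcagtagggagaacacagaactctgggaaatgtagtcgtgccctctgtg
Zfp110: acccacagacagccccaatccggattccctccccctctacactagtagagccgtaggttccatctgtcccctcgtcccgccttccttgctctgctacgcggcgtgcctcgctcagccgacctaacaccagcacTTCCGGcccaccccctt
*Zfp87*, a KRAB gene, was at 1.15, 1.1, 1.31 and 1.11 TPM with NT siRNAs and at 2.01, 2.1, 1.64 and 1.38 TPM with *Uba1* siRNAs, and *Zfp110*, with KRAB and SCAN patterns, at 6.22 ± 0.376 TPM and 7.42 ± 0.464 TPM (SD, n = 4 per group). Neither had overlapping groups. A match of letters shows no binding.

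Markers of the cells in the muscle were measured beside the *Zfp* genes. The 10 skeletal muscle markers, all at high levels, summed to 125360 to 134033 TPM with NT and 100202 to 136994 TPM with *Uba1* siRNAs. Of these, 0 of 10 were at an unadjusted P under 0.05, beside 16.0% of all genes higher and 1.98% lower. With median-ratio scaling 5 were lower at it, beside 6.18% of all genes, and 0 higher, beside 4.43%. Fibroblast markers summed to 491 to 1023 and 614 to 1257 TPM, and of 8 tested *Lum* alone was higher at that P, while 7 had a log2FC above 0, with a median of 0.27, or 0.15 with median-ratio scaling. Adipocyte markers summed to 8.85 to 15.9 and 1.66 to 12.7 TPM, and of 4 tested *Cidec* alone was lower at that P, or *Cidec* and *Adipoq* with median-ratio scaling, with *Adipoq* at 0.741 and 1.52 TPM in *Uba1* replicates 2 and 4 beside 4.49 TPM or more in the other muscles. Leukocyte markers (8 of 12 tested) summed to 153 to 463 and 146 to 495 TPM, endothelial markers (8 of 8) to 129 to 194 and 143 to 183 TPM, and Schwann cell markers (4 of 6) to 42.9 to 67.6 and 33.4 to 77.7 TPM, with 0 at that P. No listed marker was at 0 in all 8 muscles. The share of TPM from mitochondrial genes was 42.1% to 45.7% with NT siRNAs and 40.2%, 50.3%, 39.9% and 46.5% in *Uba1* replicates 1 to 4. Their part in the differences of the *Zfp* genes was not tested.

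The spread between muscles differed among *Zfp* genes. It was largest for *Zfp503*, a corepressor of the NocA family, which was at 3.28, 3.39, 3.28 and 8.3 TPM with NT siRNAs and at 3.87, 1.99, 3.51 and 9.04 TPM with *Uba1* siRNAs. Both legs of mouse 4 were high, and between groups the log2FC was -0.045. *Zfp568* and *Zfp414* followed. *Zfp414* was at 3.14, 3.12, 3.92 and 2.02 TPM and at 4.62, 2.79, 4.83 and 2.53 TPM, with the legs of mouse 3 the highest and those of mouse 4 the lowest of their group. Over all 243 genes the median SD within groups was 0.118 on the log2(TPM + 1) scale, beside 0.139 over all genes tested.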

How the data were processed

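RNA of 8 TA muscles was sequenced on an Illumina NovaSeq after TruSeq library preparation. The authors trimmed the reads (Phred 20), ran CLC Genomics Workbench against GRCm39 and deposited TPM per gene, which sum to 1000000 in each muscle. The treatment of reads with several matches is not given in the sources used here. Each column carries the title of 1 sample.

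From the TPM, log2(TPM + 1) was computed, 11530 genes that reached 1 TPM in 4 or more muscles were kept, and limma 3.58.1 in R 4.3.3 (eBayes with trend, no block, Benjamini-Hochberg over all genes) compared the groups. The members, lists and tests were chosen with earlier results of these data known. P-values measure the spread between muscles, each from another mouse within a group.

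Equal replicate numbers mark the legs of a mouse, per the sample titles and the study's methods. Deviations from the group means of same-numbered muscles correlated over all genes with r = -0.000368, 0.201, 0.584 and 0.537 in mice 1 to 4.

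Finger, KRAB and SCAN patterns were searched in coding sequences of GENCODE M39 translated by code, not in RefSeq proteins as planned. KRAB and SCAN were searched in every annotated coding transcript and fingers in the canonical one. The genes named were the 10 of highest level, the 10 of smallest P, up to 5 with the largest and smallest log2FC that moved alike in 4 of 4 mice, those in role lists, 3 on each side of the threshold, the 3 of largest spread and up to 3 of each other list by P. *Zfp94*, *Zfp966*, *Zfp971*, *Zfp954*, *Zfp879*, *Zfp708*, *Zfp965*, *Zfp967* and the promoters were named after their values were seen. The alternatives were another pseudocount (0.1), no filter or a mean of 5 TPM, median-ratio scaling, quantile normalization, TPM without mitochondrial genes, the block with and without these scalings, no moderation, the Kruskal-Wallis test and leaving out each muscle.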

Additional observations from a re-analysis of the deposited data

Results flagged for a closer look

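In 204 groups of 4 muscles (the named genes, in each group of muscles), 7 held 1 muscle far from the other 3, by its gap relative to the range of the group, where chance gives about 10.2. For *Zfp652* it was *Uba1* replicate 1 at 15.9 TPM, with the others at 21.9 to 23.0 TPM. For *Zfp472* it was NT replicate 1 at 1.12 TPM, with the others at 0.747 to 0.779 TPM. For *Zfp277* it was *Uba1* replicate 2 at 1.32 TPM, with the others at 1.67 to 1.71 TPM. For *Zfp503* it was NT replicate 4 at 8.3 TPM, with the others at 3.28 to 3.39 TPM. Outside the *Zfp* genes these were *Myh1* in *Uba1* replicate 2 at 6010 TPM (others 3535 to 3662 TPM), *Plin1* in NT replicate 4 at 0.682 TPM (others 1.33 to 1.45 TPM) and *Zbtb4* in NT replicate 3 at 11.1 TPM (others 11.7 to 11.9 TPM).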

How the results depend on the processing

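The number of *Zfp* genes past the adjusted p was 0 in every alternative run, among them the Kruskal-Wallis test, which passed 0 of all genes. Those higher at an unadjusted P under 0.05 numbered 95, and 23 of 71 with a mean of 5 TPM or more, a smaller number of genes tested, 41 with median-ratio scaling, 28 with quantile normalization, 42 and 35 with the replicate block added to these scalings, and 114 with the replicate block alone. Of all genes 16.0% were higher at that P in the main test, 15.8% with a mean of 5 TPM or more, 4.43% and 4.45% with these scalings, 6.96% and 7.15% with the block added and 22.4% with the block alone. Those lower numbered 1, and 0 with a mean of 5 TPM or more and without moderation, 2 with median-ratio scaling with and without the block, and 3 with quantile normalization with and without the block, beside 1.98% of all genes in the main test and 5.16% to 8.76% with these scalings, block or none. The median log2FC of 0.18 became 0.095 and 0.075 and the share above 0 of 95.1% became 81.9% and 79% with these 2 scalings, block or none, because each centres all genes. In the other alternatives both moved by less than 1 SD over the 4 mice (0.0508 and 8.69 percentage points), with a median of up to 0.23 at a pseudocount of 0.1. That pseudocount moved the log2FC of *Zfp689* from 0.53 to 1.06. The block with quantile normalization, the class rows and the list without repeated sequences were chosen after seeing the data. The log2FC of *Uba1*, -1.98 with an adjusted p just over the threshold, passed it at -1.98 with a mean of 5 TPM or more and with the replicate block, at -2.0 without mitochondrial genes, at -2.09 and -2.06 with median-ratio scaling and quantile normalization, block or none.

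With each muscle left out in turn, 65 to 102 *Zfp* genes were higher and 0 to 1 lower at an unadjusted P under 0.05, beside 10% to 17.7% and 1.52% to 2.45% of all genes, the median log2FC was 0.17 to 0.19, the share above 0 was 92.2% to 96.7%, and the log2FC of *Uba1* was -2.18 to -1.64. The median log2FC of KRAB genes minus that of the others was 0.045, 0.022 to 0.062 with a muscle left out and 0.022 with a mean of 5 TPM or more. The 1 lower gene was lost without NT replicate 1, 3 or 4 and without *Uba1* replicate 1, 2 or 4. *Uba1* passed the adjusted p without *Uba1* replicate 2 or 4 (0.00257 and 0.0206).

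Of the 68 named *Zfp* genes, 19 changed the sign of a log2FC that passed no threshold. With median-ratio scaling, block or none, these were *Zfp106* (-0.075), *Zfp91* (-0.029), *Zfp706* (-0.053), *Zfp598* (-0.055), *Zfp622* (-0.0041), *Zfp277* (-0.022), *Zfp330* (-0.07), *Zfp384* (-0.074), *Zfp131* (-0.087), *Zfp592* (-0.054) and *Zfp687* (-0.048). With quantile normalization, block or none, they were *Zfp706* (-0.026), *Zfp598* (-0.031), *Zfp622* (-0.012), *Zfp277* (-0.054), *Zfp330* (-0.079), *Zfp318* (-0.0029), *Zfp384* (-0.066), *Zfp131* (-0.073), *Zfp410* (-0.017), *Zfp592* (-0.051), *Zfp687* (-0.052) and *Zfp644* (-0.026). With a muscle left out, the log2FC ranged from -0.014 to 0.079 for *Zfp330*, -0.061 to 0.029 for *Zfp46*, -0.015 to 0.088 for *Zfp131*, -0.12 to 0.039 for *Zfp217*, -0.21 to 0.082 for *Zfp568*, -0.13 to 0.052 for *Zfp429*, -0.007 to 0.071 for *Zfp384*, -0.37 to 0.23 for *Zfp503*, -0.0043 to 0.13 for *Zfp106* and -0.0098 to 0.084 for *Zfp592*. TPM give no counts, so 4 muscles a group set the precision.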
